A study of Homo sapiens with 54 samples.

Results

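HT-29 is an epithelial cell line from a human colon adenocarcinoma. Its response to a low concentration of tumour necrosis factor (TNF), 5 ng/ml, was measured against the same cells without TNF, on Affymetrix expression arrays. Every culture had first been primed with interferon-gamma at 200 U/ml for 24 h, so the arrays without TNF are primed cells too. The members are arrays chosen by their titles: 18 of the 54 arrays carry TNF at 5 ng/ml and 18 carry none, which makes 36 arrays. The 18 arrays at 100 ng/ml TNF entered the filter on low signal and the estimate of spread. They also entered the constant added to signals and the choice of probe set for each gene. They were not compared themselves. The TNF side holds 3 treatments, namely TNF alone, TNF with epidermal growth factor (EGF) at 1 ng/ml and TNF with insulin at 5 ng/ml. The side without TNF holds cells with no further factor (called untreated here), EGF at 100 ng/ml and insulin at 500 ng/ml. Each treatment was sampled at 4, 8 and 16 h in biological duplicate, giving 6 arrays against 6 at each time. The sides therefore differ in TNF and also in how much EGF or insulin their 12 supplemented arrays received, and values for TNF alone against untreated cells, or for all 18 TNF arrays against untreated arrays alone, are given beside the group counts they move by over 1.5 times and beside several genes. All arrays come from 1 cell line, and the number of arrays limits the precision of every value.

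TNF binds its receptor TNFR1, and the complex that forms releases the transcription factor NF-kB from its inhibitors of the IkB family. NF-kB then turns on chemokines, adhesion molecules and survival genes, together with the genes of its own inhibitors, while the same receptor can also assemble a death-inducing complex with caspase-8. Interferon-gamma induces the transcription factor IRF1 and is known to sensitise HT-29 cells to TNF. Type I interferon, such as interferon-beta, acts through a separate receptor and the complex ISGF3, which binds the interferon-stimulated response element. Genes of DNA replication are controlled largely by E2F factors at the entry into S phase.

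Sequences of some of these promoters are shown because the gene groups that moved together below are the textbook targets of these 3 elements. They come from the RefSeq promoter table (GRCh38.p14, 250 bases before to 50 after the start), which held 1 promoter each for 4707 of the 8105 genes tested. In each stretch of 60 bases, read 5′ to 3′ on the gene's own strand, capitals mark the match nearest the start. The first 6 hold the NF-kB consensus (10 bases, degenerate) in early chemokine and feedback genes, with the marked match on the opposite strand in all 6. CXCL1, CXCL2 and CXCL3 each held 2 matches, and the unmarked one overlaps the marked one on the gene's own strand.
CXCL1: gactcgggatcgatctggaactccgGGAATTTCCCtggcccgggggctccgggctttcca
CXCL2: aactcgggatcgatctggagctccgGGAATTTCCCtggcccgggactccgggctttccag
CXCL3: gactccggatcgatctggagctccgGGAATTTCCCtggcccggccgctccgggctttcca
CCL20: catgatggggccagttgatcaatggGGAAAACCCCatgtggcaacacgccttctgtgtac
NFKBIA: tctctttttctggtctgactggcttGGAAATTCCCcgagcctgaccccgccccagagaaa
TNFAIP3: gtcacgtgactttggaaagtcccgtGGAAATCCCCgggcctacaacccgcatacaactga
The next 3 belong to genes that rose mostly at 16 h, with an NF-kB consensus in IFNB1 and VCAM1 and the interferon-stimulated response element, GAAANNGAAA, in IFIT1 on the opposite strand; VCAM1 also held a match to that element, nearer its start.
IFNB1: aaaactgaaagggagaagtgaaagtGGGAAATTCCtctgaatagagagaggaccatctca
VCAM1: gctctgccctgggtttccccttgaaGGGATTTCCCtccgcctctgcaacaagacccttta
IFIT1: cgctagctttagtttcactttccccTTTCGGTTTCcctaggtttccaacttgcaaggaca
The last pair belongs to replication genes that fell at 16 h, with an E2F element (TTTGGCGC, TTTCGCGC, TTTCCCGC or TTTGCCGC) on the opposite strand.
GINS2: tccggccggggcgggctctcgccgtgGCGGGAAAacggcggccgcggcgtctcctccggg
TYMS: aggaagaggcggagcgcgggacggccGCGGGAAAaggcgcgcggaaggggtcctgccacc
These stretches lie at chr4:73869290-73869349 (+ strand), chr4:74099238-74099297 (- strand), chr4:74038733-74038792 (- strand), chr2:227813738-227813797 (+ strand), chr14:35404796-35404855 (- strand), chr6:137867179-137867238 (+ strand), chr9:21077974-21078033 (- strand), chr1:100719655-100719714 (+ strand), chr10:89392495-89392554 (+ strand), chr16:85688952-85689011 (- strand) and chr18:657588-657647 (+ strand). The 10 marked bases of CXCL1, CXCL2 and CXCL3 are identical. Both strands were searched and overlapping matches were allowed. The NF-kB consensus was found in 11 of the 17 measured chemokine and cytokine genes with a promoter in the table, against 10.48% of all 22114 promoters and 13.4% of those of the 4707 genes tested. The interferon-stimulated response element was found in 14 of 18 type I interferon-stimulated genes, against 3.81% of all promoters and 3.23% of those tested. The E2F element was found in 15 of 26 G1/S genes, against 3.18% and 5.76%. A match describes letters in this window and is no evidence of binding. The stretches shown were picked from genes with a match. CXCL8, ICAM1, PTGS2, OAS1, RGS2 and DKK1 had no match to any of the 3 elements in this window. RARRES1, which rose, held an E2F element, and PAGR1, which fell at 16 h, an NF-kB consensus. The interferon-stimulated gene RIGI held an NF-kB consensus and no interferon-stimulated response element.

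Epithelial marker genes were bright on both sides, and most leukocyte and stromal markers were near or below the filter on low signal. All 9 measured epithelial genes passed that filter, with medians between the tight junction gene CLDN4 at a signal of 1184 and the keratin KRT18 at 26208 on the TNF side. The keratin KRT19 was the only one of these called. It fell by 0.33 ± 0.05 (adjusted p = 8.4e-06) and was not called against untreated arrays alone (adjusted p = 0.142). Signals are the deposited linear values, scaled by the submitters, and array medians lay between 123 and 168. Of 18 leukocyte and stromal genes on the array 9 passed the filter on low signal, and the summed medians of the 18 were 1945 with TNF and 1678 without. The leukocyte gene PTPRC had medians of 23.0 and 20.4, NKG7 of natural killer cells 4.43 and 4.55, and the stromal gene LUM 1.63 and 1.94. Above the filter value of 138.9 on both sides were COL1A1 (394 and 374), ACTA2 (233 and 221), DCN (171 and 194) and PECAM1 (157 and 142). ITGAM, an integrin of myeloid cells, was the only one of the 9 kept that was called. It rose by 1.26 ± 0.08 (adjusted p = 2.13e-14), while the second probe set of that gene had a difference of 0.07. The log2 ratio of 3′ to 5′ ACTB signal, which rises in shortened RNA, reached 0.43 at most with TNF and 0.98 without (insulin at 500 ng/ml, 8 h, replicate 2).

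TNF at 5 ng/ml raised chemokine, complement, interferon-related and NF-kB feedback genes. Between the sides more genes were called lower than higher, and this split depended on the arrays and the scaling used. Changes were averaged over the 3 times, as log2 differences between the treatments with and without TNF. They were taken on signals to which 12.49 had been added, which shrinks the folds of weak genes. Each is given ± its standard error, over 18 arrays against 18. Values at a single time, with TNF alone or for EGF or insulin compare 6 arrays with 6, and those against untreated arrays alone compare 18 with 6. Tests are limma's moderated test, with Benjamini-Hochberg adjustment over 13422 probe sets, and a gene is called at an adjusted p below 0.05. Of 8105 genes 2001 were called, or 24.7%, with 779 higher (9.61%) and 1222 lower (15.1%). At least 2-fold changes were seen in 97 of the higher and 10 of the lower genes. The median over all genes was −0.04. With untreated arrays alone on the side without TNF, 564 genes were higher (6.96%) and 732 lower (9.03%), and 1920 probe sets were called in place of 3011. With TNF alone against untreated cells, 6 arrays against 6, 407 genes were higher (5.02%) and 320 lower (3.95%). Counts of list members with TNF alone are read against those shares. After median centring 1141 probe sets were higher and 1231 lower between the sides, in place of 1229 and 1782. All 6 arrays with TNF lay above all 6 without in 2.34% of genes at 4 h, 3.44% at 8 h and 5.52% at 16 h, and below in 1.81%, 3.55% and 6.61%. At all 3 times together they lay above in 91 genes (1.12%) and below in 21 (0.259%).

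The neutrophil chemoattractant CXCL8 had the largest rise. Its signal ran from 3137 to 14027 with a median of 7309 in the 18 arrays with TNF and from 267 to 977 with a median of 466 in the 18 without. The sides did not overlap at any time, and the rise was 3.86 ± 0.11 (adjusted p = 7.04e-25), or 14.5-fold. CCL20, which attracts cells bearing CCR6, ran from 885 to 1484 with a median of 1033 at 4 h with TNF and from 23.1 to 85.0 with a median of 48.0 without. At 16 h the same gene ran from 360.4 to 774 with TNF and from 212 to 351 without. The sides of CCL20 were still apart at 16 h, but by little, with lower signals with TNF and higher ones without than at 4 h. Its mean rise was 3.52 ± 0.13 (adjusted p = 2.33e-21).

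CXCL9, an interferon-induced chemokine that attracts T cells, gave the smallest adjusted p. With TNF it ran from 5663 to 14294 and without from 389 to 1475. All arrays with TNF lay above all arrays without, and the rise was 3.25 ± 0.05 (adjusted p = 5.72e-33). The cytokine IL32 ran from 2360.1 to 10737 with a median of 5378 with TNF and from 272 to 1842 with a median of 641 without. It brightened with time on both sides, which stayed apart at each time, and it rose by 3.05 ± 0.09 (adjusted p = 1.08e-23). The hexose transporter SLC2A6 ran from 164 to 741 with a median of 416 with TNF and from 6.92 to 99.3 with a median of 18.9 without, so that without TNF it was below the filter value of 138.9 on every array. It rose by 3.50 ± 0.15 (adjusted p = 1.25e-19).

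**Figure D1:**
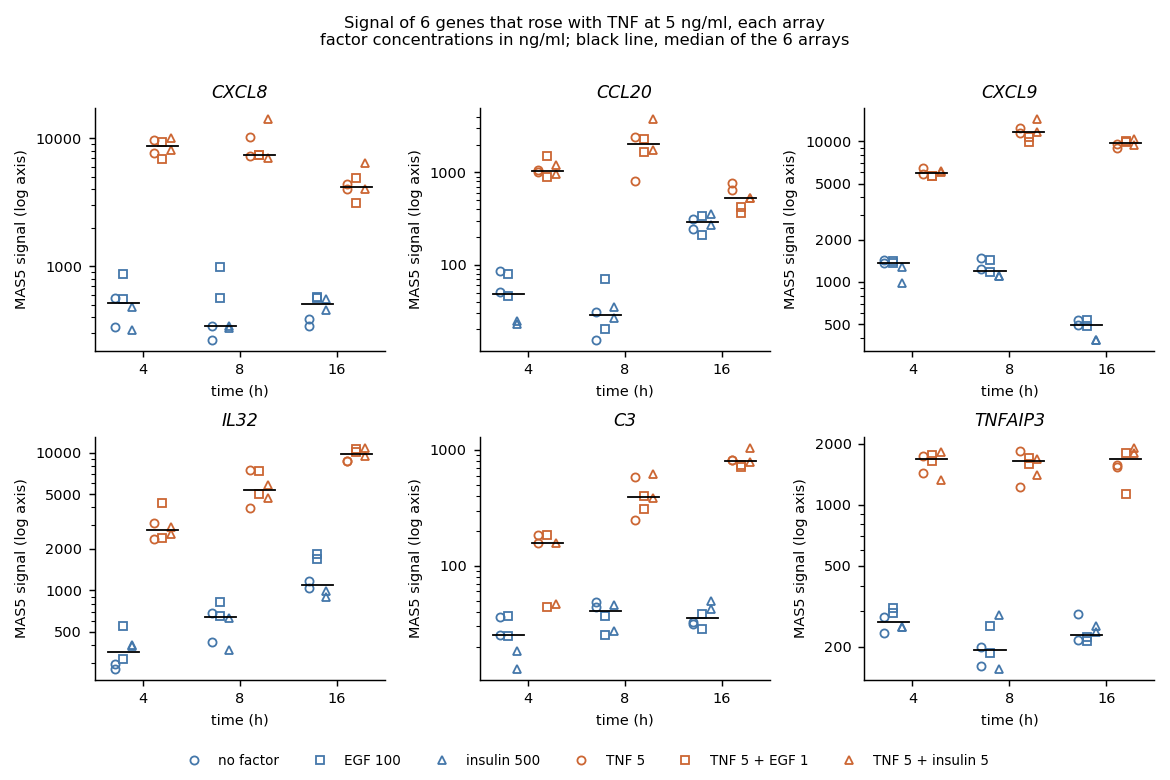
Signal on a log axis against time for 6 genes that rose, with one point per array; blue points carry no TNF, orange points carry TNF at 5 ng/ml, shapes give the added factor and black lines are medians of 6 arrays. The sides do not overlap for any of the 6 genes at any time; CCL20 narrows at 16 h, and CXCL9 and C3 widen.

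Among the other large rises, complement C3 ran from 44.0 to 1034 with a median of 391 with TNF and from 13.0 to 49.9 with a median of 34.6 without, and rose by 2.96 ± 0.14 (adjusted p = 1.74e-18). The sides were apart at every time. TNFAIP3, which encodes the deubiquitinase A20 that restrains NF-kB, ran from 1134 to 1902 with a median of 1666 with TNF and from 156 to 309 without. It rose by 2.70 ± 0.08 (adjusted p = 1.41e-24), by much the same amount at 4, 8 and 16 h (2.53, 2.88 and 2.70). The cell cycle regulator RGCC rose by 2.62 ± 0.10, the complement protease C1S by 2.51 ± 0.08, HLA-DOB by 2.42 ± 0.12, the chemokine CXCL1 by 2.42 ± 0.08 and CCL22 by 2.37 ± 0.14. The elastase inhibitor PI3 rose by 2.33 ± 0.09, the membrane-bound chemokine CX3CL1 by 2.32 ± 0.06 and RARRES1 by 2.28 ± 0.07. Their adjusted p lay between 4.25e-26 for CX3CL1 and 1.4e-15 for CCL22. In these 8 genes every array with TNF lay above all 6 arrays without TNF of its time, except 1 array of CCL22 at 4 h.

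Gene groups are described by counts of called members. Only members that passed the filter on low signal in at least 1 of the 27 groups were counted. A member weak without TNF can pass through the TNF arrays alone, so the shares called depend on this filter. Of 31 chemokines and cytokines on the array 26 passed, and of 24 mucosal genes 15. Of 24 measured genes of NF-kB subunits, inhibitors and feedback regulators 17 rose and 7 were not called, with a median of 0.74 against −0.04 over all genes. The inhibitor gene NFKBIA ran from 4310.1 to 9091 with a median of 7014 with TNF and from 1085 to 2546 with a median of 1489 without, and rose by 2.11 ± 0.06 (adjusted p = 5.81e-24). The subunit gene NFKB2 rose by 2.09 ± 0.17 and TNFAIP2 by 2.01 ± 0.08. The other subunits, named for their role after their values were seen, also rose, RELB by 1.93 ± 0.07, NFKB1 by 0.94 ± 0.06, RELA by 0.71 ± 0.05 and REL by 0.42 ± 0.12. REL was called at 4 h (0.94 ± 0.20) and not at 8 or 16 h (0.32 and −0.02). The upstream kinases MAP3K14 (−0.14) and CHUK (−0.17) and the kinase scaffold IKBKG (−0.06) were not called.

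Chemokines and cytokines had 21 of 26 genes higher and 5 not called, with a median of 1.25. Genes not called were IL1A at 0.41, IL1B at 0.34, IL6 at 0.16, TNFSF15 at 0.12 and IL7 at −0.31. Adhesion molecules and matrix proteases had 11 of 19 higher, with a median of 0.27. The leukocyte adhesion molecule ICAM1 ran from 5293 to 13764 with TNF and from 1852 to 4416 without and rose by 1.54 ± 0.08 (adjusted p = 3.57e-17), with no overlap. VCAM1 rose by 1.72 ± 0.13 (adjusted p = 1.15e-12), ITGAV by 1.00 ± 0.07 and the proteoglycan SDC4 by 1.00 ± 0.22. Of 11 complement genes 7 rose, with the factor B gene CFB at 1.53 ± 0.06 and C1R at 1.49 ± 0.08; the inhibitors CD46 and C4BPB were not called, at −0.01 and −0.06. Of 15 mucosal antiproteases and defence proteins 9 rose, among them the mucin MUC1 by 1.34 ± 0.10, the granzyme B inhibitor SERPINB9 by 1.20 ± 0.07 and SERPINA3 by 1.12 ± 0.13.

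TNF receptor and apoptosis genes had 14 of 26 higher and 2 lower, with a median of 0.30 (10 and 1 with TNF alone). RIPK2, a kinase of NOD signalling, ran from 5152 to 7915 with TNF and from 1469 to 3417 without and rose by 1.49 ± 0.07 (adjusted p = 3.13e-19). TNFRSF1B, which encodes TNFR2, rose by 1.15 ± 0.15, the BH3-only gene PMAIP1 by 0.74 ± 0.09 and the TRAIL receptor TNFRSF10B by 0.61 ± 0.06. The signal of TNFRSF1B was weak, at most 75.5 without TNF, where the filter value was 138.9. Its medians by treatment with TNF ran from 105.6 to 159. TNFRSF1A, the gene of TNFR1, rose by 0.37 ± 0.09 and CASP8 by 0.35 ± 0.06, whereas the adaptor FADD fell by 0.22 ± 0.05 and CASP6 by 0.51 ± 0.09. CFLAR, the caspase-8 inhibitor of the NF-kB list, rose by 0.78 ± 0.04. The last 5 were named for their role after their values were seen.

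**Figure D2:**
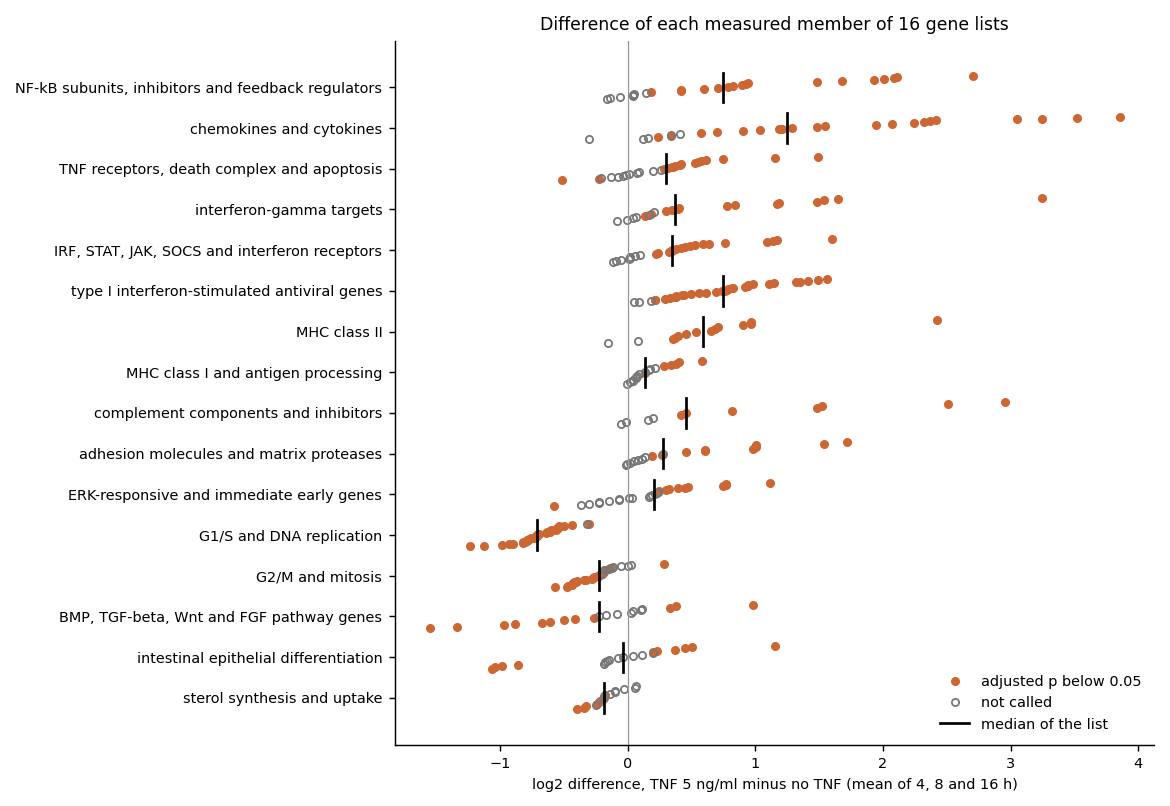
Mean log2 difference over 4, 8 and 16 h for each measured member of 16 gene lists; filled points are called, open points are not, and black bars are list medians. The chemokine list has the highest median, 1.25, and the G1/S list the lowest, −0.71, with 34 of 35 members called lower.

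Interferon-related genes rose further although all cells had been primed. Of 20 interferon-gamma targets 14 rose and 6 were not called, with a median of 0.37. The tryptophan-degrading enzyme IDO1 rose by 1.65 ± 0.07 and CXCL10 by 1.48 ± 0.08, while PSMB8, PSMB10 and WARS1 were not called, at 0.06, 0.04 and 0.16. Of 25 receptor, JAK, STAT, IRF and SOCS genes 17 rose, with a median of 0.35, and with TNF alone 11 were called. IFNGR2, a chain of the interferon-gamma receptor, ran from 2637 to 4572 with TNF and from 820.0 to 1596 without and rose by 1.60 ± 0.06 (adjusted p = 2.28e-22). The other chain, IFNGR1, rose by 1.14 ± 0.06, the type I receptor chain IFNAR2 by 1.09 ± 0.06 and the inhibitor SOCS1 by 1.17 ± 0.08. IRF1 itself, with 5435 to 10704 already without TNF, rose by 0.35 ± 0.06 (adjusted p = 9.91e-06).

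In MHC class II, which presents peptides to helper T cells, 12 of 14 genes rose with a median of 0.59, and in class I 6 of 18 with a median of 0.13. With TNF alone 7 class II genes (median 0.37) and 1 class I gene (median 0.09) were called higher. Insulin at 500 ng/ml without TNF lowered 2 class II genes, CIITA and HLA-DPB1, and the median of the 14 was −0.35. HLA-DOB ran from 92.3 to 669.6 with a median of 541 with TNF and from 15.3 to 111 with a median of 76.8 without, and the sides did not overlap at any time. HLA-DQB1 rose by 0.97 ± 0.10, the protease CTSS by 0.97 ± 0.09 and the class II transactivator CIITA by 0.90 ± 0.08. In class I, TAPBP rose by 0.58 ± 0.07, TAP1 by 0.40 ± 0.06, HLA-F by 0.37 ± 0.06 and HLA-G by 0.34 ± 0.07. The last was not called against untreated arrays alone (adjusted p = 0.366). Probes of HLA genes, and of CXCL1, CXCL2 and CXCL3, can bind transcripts of their near-identical relatives, which was not tested.

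Type I interferon-stimulated antiviral genes rose late. Of 34 genes 31 rose in the mean over times, and their median went from 0.08 at 4 h to 0.49 at 8 h and 1.43 at 16 h, against −0.04, −0.03 and −0.04 over all genes. Called higher were 4 at 4 h, 21 at 8 h and 33 at 16 h, where 3.63%, 5.72% and 8.12% of all genes were called higher. The difference changed with time in 28 of the 34, by an F test on the differences at 8 and 16 h from that at 4 h, which called 7.72% of all genes. RSAD2, which encodes viperin, ran from 139 to 242 at 8 h with TNF and from 109 to 183 without. At 16 h it ran from 4004 to 5151 against 189.7 to 314. The sides overlapped at 4 and 8 h and were far apart at 16 h, where the difference was 3.97 ± 0.19 (adjusted p = 5.92e-18).

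IFIT1, a sensor of viral RNA ends, was lower with TNF at 4 h by 0.57 ± 0.15 (adjusted p = 0.0184), at 197 to 421 against 303 to 692. At 8 h its difference was 0.05 and at 16 h 2.97 ± 0.15 (adjusted p = 6.18e-17), at 6585 to 10139 against 622 to 1259. IFIT2, IFI16 and MX2 also had their largest differences at 16 h, at 3.13 ± 0.27, 2.80 ± 0.13 and 2.44 ± 0.14. The RNA sensors IFIH1 and RIGI rose by 1.49 ± 0.08 and 1.35 ± 0.08 in the mean over times. The gene of interferon-beta, IFNB1, ran from 77.2 to 223 at 16 h with TNF and from 6.19 to 18.5 without, and its largest signal at 4 or 8 h on either side was 24.8. It was above the filter value of 138.9 on 4 of the 6 arrays with TNF at 16 h and on no other of the 36, and its difference there was 2.86 ± 0.26 (adjusted p = 1.63e-10). ISG15 was already bright without TNF, at 7809 to 15796, and its mean rise was 0.21 ± 0.08 (adjusted p = 0.0353).

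Cell cycle genes went the other way. In the list of G1/S and DNA replication, 34 of 35 genes fell, 0 rose and GINS3 was not called (−0.32), with a median of −0.71. Called lower were 5 at 4 h, 32 at 8 h and 33 at 16 h, and the median went from −0.24 to −0.70 and −0.93. At those times 2.42%, 6.92% and 10.8% of all genes were called lower. In these bulk samples, fewer cells in S phase and less RNA of these genes per cell cannot be told apart. Of 35 G2/M genes 25 fell and CDC25B rose (0.28), with a median of −0.23. Against untreated arrays alone 15 of the 35 were called lower (median −0.26), where 9.03% of all genes were. With TNF alone 5 were called lower (median −0.22), in a comparison of fewer arrays that called 3.95% of all genes lower.

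The replication gene GINS2 ran from 757 to 1162 with TNF and from 879 to 1121 without at 4 h. At 16 h it ran from 72.0 to 192 against 707 to 981. The sides overlapped at 4 h and were apart at 8 and 16 h, and the mean fall was 1.13 ± 0.11 (adjusted p = 3.52e-10). The uracil glycosylase UNG fell by 0.99 ± 0.10 and the helicase subunit MCM5 by 0.93 ± 0.08. BARD1, the partner of BRCA1, fell by 0.99 ± 0.10 with no overlap at any time. TYMS, thymidylate synthase, was at −0.07 at 4 h and at −1.60 ± 0.16 (adjusted p = 6.98e-10) at 16 h. In G2/M, the kinesin KIF11 fell by 0.57 ± 0.07 and the transcription factor FOXM1 by 0.47 ± 0.07. KIF23 fell by 0.45 ± 0.10 and MAD2L1 by 0.47 ± 0.12, and MAD2L1 was not called against untreated arrays alone (adjusted p = 0.108).

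Falls outside the cell cycle included RGS2, FGF9 and SOSTDC1. RGS2, a regulator of G-protein signalling, ran from 1839.6 to 2251 at 4 h with TNF and from 1556 to 3192 without, then from 559 to 736 at 16 h against 3050.4 to 5279. The sides overlapped at 4 h (−0.27, adjusted p = 0.144) and were apart at 8 and 16 h. At 8 h RGS2 fell by 1.71 ± 0.10, and at 16 h it fell by 2.68 ± 0.10. FGF9 ran from 25.7 to 175 with a median of 107 with TNF and from 162 to 464 with a median of 299 without. It fell by 1.34 ± 0.11 (adjusted p = 1.16e-11), and the sides did not overlap at any time. SOSTDC1, a secreted antagonist of BMP and Wnt, ran from 9.7 to 140.0 with a median of 55.1 with TNF and from 66.1 to 327 with a median of 185 without and fell by 1.56 ± 0.14 (adjusted p = 1.21e-10).

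Of 19 genes of BMP, TGF-beta, Wnt and FGF pathways 9 fell and 3 rose (6 and 2 with TNF alone), with SMAD3, a TGF-beta signal transducer, higher by 0.98 ± 0.08. Intestinal differentiation genes were divided, with 6 of 19 higher and 4 lower (4 and 3 with TNF alone). VIL1, which encodes villin of the microvilli, ran from 89.5 to 236 at 16 h with TNF and from 368 to 640.3 without. It fell by 0.99 ± 0.10 (adjusted p = 2.61e-09) in the mean over times, with no overlap at any time. The homeobox gene ISL1 fell by 1.07 ± 0.10 with no overlap at any time. COBL, an actin nucleator, fell by 1.04 ± 0.16 with overlap at each time, and CEBPD rose by 1.15 ± 0.08. KRT20, MUC2 and TFF3 were not called, at 0.11, 0.20 and 0.04.

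Several of the larger falls rest on weak signals. The endocytic adaptor EPN3 ran from 6.49 to 75.4 with a median of 14.5 with TNF and from 20.3 to 243 with a median of 115 without and fell by 1.90 ± 0.17 (adjusted p = 1e-10). PPFIBP2 had a median of 12.7 with TNF and 45.5 without and fell by 1.10 ± 0.19, and OSGEPL1 had 38.8 and 112 and fell by 0.98 ± 0.20. All 3 had medians below the filter value of 138.9 on both sides. For EPN3 and PPFIBP2 15 and 16 of the 18 arrays with TNF lay below all 6 arrays without TNF of their time, for OSGEPL1 7. ANXA13 fell by 1.01 ± 0.13, nearly all of it at 16 h (−2.18), with medians of 30.5 and 183 there.

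**Figure D3:**
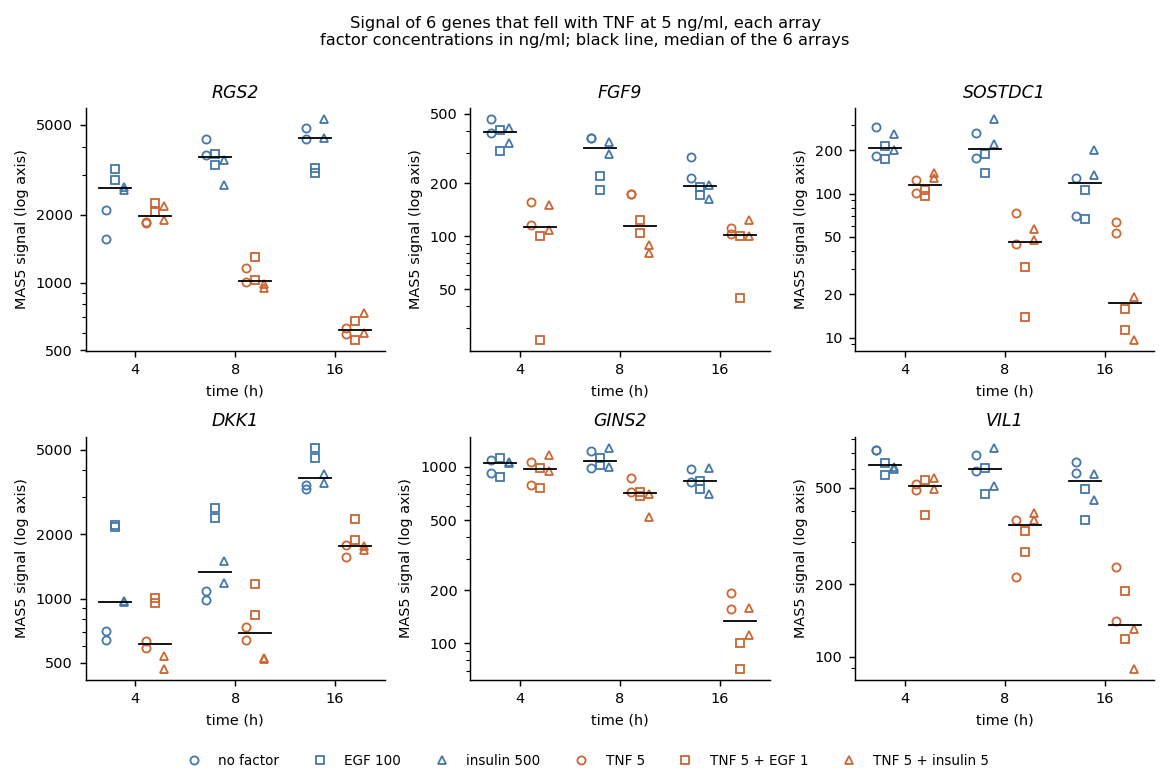
Signal on a log axis against time for 6 genes that fell, with one point per array; blue points carry no TNF, orange points carry TNF at 5 ng/ml, shapes give the added factor and black lines are medians of 6 arrays. RGS2 and GINS2 overlap at 4 h and not at 16 h, FGF9, SOSTDC1 and VIL1 do not overlap at any time, and at each time the EGF 100 ng/ml arrays of DKK1 lie above the other arrays without TNF.

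By single time the number of called genes grew. At 4 h 490 genes were called (6.05%), 294 higher and 196 lower; at 8 h 1025 (12.6%), 464 higher and 561 lower; at 16 h 1533 (18.9%), 658 higher and 875 lower. The split at 4 h depended on scaling and on the model. It was 438 probe sets higher and 253 lower as deposited and 444 higher and 87 lower after median centring. With the replicate as a block within each time it was 595 higher and 578 lower. At 8 h all pairs of same-numbered arrays deviated together, and at 4 and 16 h most pairs did. With that block 2277 probe sets were called at 8 h in place of 1490, 1173 at 4 h in place of 691 and 3241 at 16 h in place of 2233. Called genes at one time and not at another are not shown to differ, which the F test by time addresses. It called 626 genes (7.72%), of which 481 had the larger difference at 16 h and 145 at 4 h. Of the 481, 244 were higher and 237 lower at 16 h, and of the 145, 82 were higher and 63 lower at 4 h.

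Of the 82 early rises, the 8 with the largest change between 4 and 16 h included 4 chemokines. CCL20 differed by 4.21 ± 0.23 at 4 h, 5.49 ± 0.23 at 8 h and 0.86 ± 0.23 at 16 h (adjusted p by time = 4.43e-12). CXCL3 went from 2.49 ± 0.14 to 0.65 ± 0.14, CXCL1 from 2.65 ± 0.14 to 1.18 ± 0.14 and CXCL2 from 2.25 ± 0.11 to 0.93 ± 0.11. For all 4 chemokines the estimate was highest at 8 h. PTGS2, the inducible cyclooxygenase, went from 2.50 ± 0.17 to 1.29 ± 0.17, the adhesion gene NINJ1 from 2.24 ± 0.16 to 1.08 ± 0.16, the ephrin EFNA1 from 1.58 ± 0.17 to 0.29 ± 0.17 and TRIM15 from 1.53 ± 0.12 to 0.30 ± 0.12. EFNA1 and TRIM15 were no longer called at 16 h (adjusted p = 0.309 and 0.0869), and the others were.

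The 8 early falls had differences at 4 h between −1.86 for GPR39 and −0.80 for LRFN4. The stress-response gene GADD45A ran from 117 to 266 with TNF and from 331 to 813 without at 4 h, with no overlap. Its difference was −1.73 ± 0.21 at 4 h and −0.68 ± 0.21 at 16 h, and the call by time was lost without 1 array, TNF with EGF at 4 h replicate 1 (adjusted p = 0.0540). KLF11 went from −1.40 ± 0.19 to 0.52 ± 0.19 and the fucosyltransferase FUT4 from −1.31 ± 0.13 to −0.08 ± 0.13. DTX4 went from −0.90 ± 0.09 to −0.07 ± 0.09. For these 3 the call by time held in all 36 fits that each left out 1 array. For BMP4 (adjusted p = 0.0464), GPR39 (0.034), LRFN4 (0.0307) and NACC2 (0.0275) the call by time was lost in 26, 13, 11 and 7 of those 36 fits. In the mean over times GPR39 was not called (−0.40, adjusted p = 0.331), and BMP4 and NACC2 were not called against untreated arrays alone (adjusted p = 0.104 and 0.0691).

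Late rises were led by interferon-stimulated genes, described above, with VCAM1 and C1S beside them. VCAM1 went from 0.56 ± 0.23 at 4 h to 3.24 ± 0.23 at 16 h, at 398 to 638 with TNF against 12.9 to 97.6 without. C1S went from 1.29 ± 0.14 to 3.71 ± 0.14, at 3607 to 4110.0 against 103 to 433. Late falls joined replication genes to others. NUDT1, which removes oxidised nucleotides, was at −1.89 ± 0.18 at 16 h, the neuronal gene NRGN at −1.76 ± 0.35, PAGR1 at −1.75 ± 0.24 and the fatty-acid carrier FABP5 at −1.55 ± 0.17. At 4 h these 4 were between −0.07 and 0.05 and were not called. The call of NRGN by time was lost in 7 of the 36 fits that each left out 1 array.

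**Figure D4:**
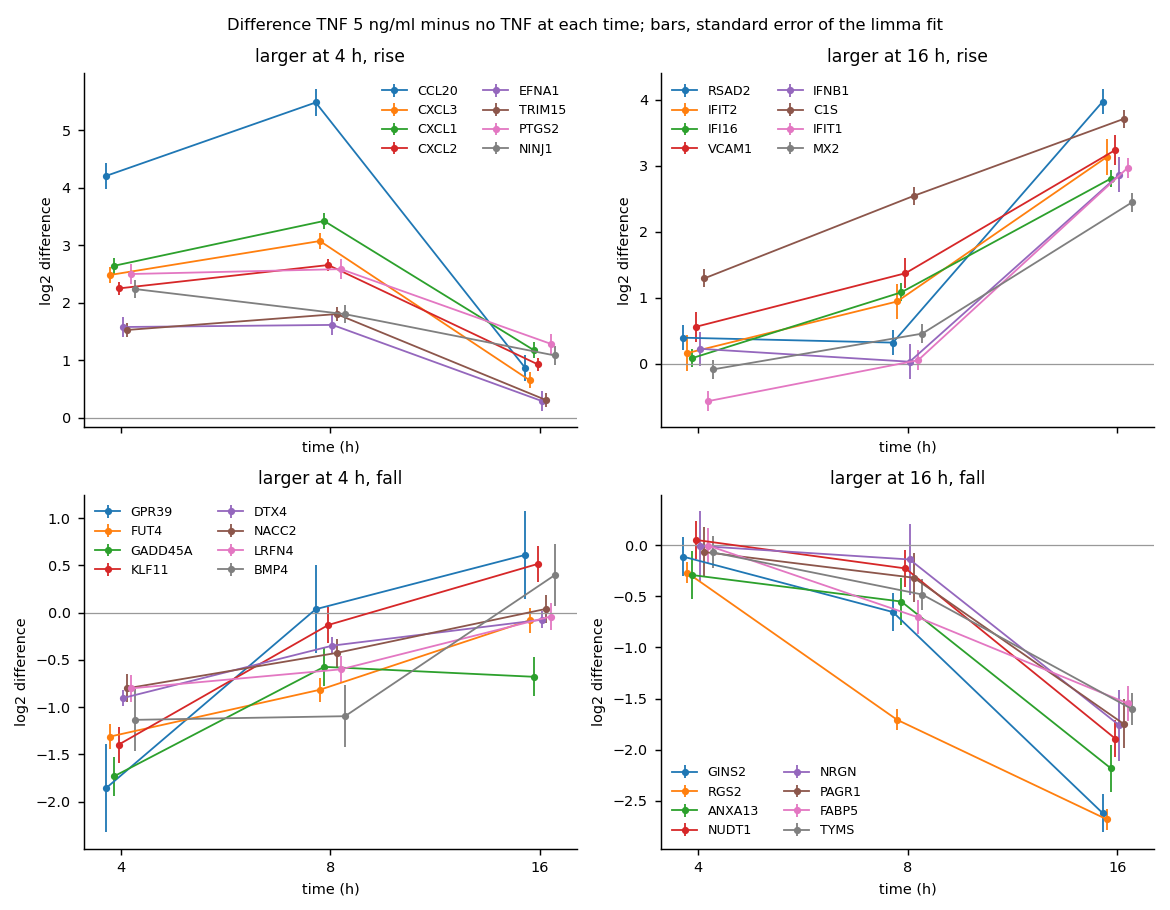
Log2 difference between TNF at 5 ng/ml and no TNF at 4, 8 and 16 h for the 8 genes of each kind whose difference changed most between 4 and 16 h; bars are standard errors. Early rises peak at 4 or 8 h and RSAD2, IFIT1 and IFNB1 depart from 0 upwards at 16 h, while GINS2 and RGS2 reach −2.62 and −2.68 there.

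Immediate early and amino acid response genes were called higher with TNF mainly at 4 and 8 h. Of 26 ERK-responsive and immediate early genes 11 rose and SPRY2 fell (−0.58) in the mean over times, with a median of 0.20. With TNF alone 12 were called higher and 1 lower (median 0.45), and against untreated arrays alone 15 and 1 (median 0.38). EGF at 100 ng/ml, which is on the side without TNF, raised 8 of the 26 (median 0.36), where it raised 0.938% of all genes. At 4, 8 and 16 h the median went from 0.22 to 0.39 and −0.06, and the difference changed with time in 11 of the 26. The phosphatase DUSP5 rose by 1.11 ± 0.08 in the mean over times, whereas JUNB went from 1.01 at 4 h to 0.27 at 16 h, ATF3 from 1.22 to −0.09 and IER3 from 1.15 to −0.25. Of 26 genes of the ATF4 and amino acid response 11 rose, and the difference changed with time in 11; VEGFA went from 1.35 to 0.28, and CHAC1, which degrades glutathione, rose by 0.47 ± 0.12 in the mean over times. HBEGF, a ligand of the EGF receptor named after its values were seen, had 0.68 at 8 h (adjusted p = 0.0609) and fell at 16 h by 1.19 ± 0.24 (adjusted p = 0.000316). The receptor EGFR rose by 0.52 ± 0.09, but of its 5 probe sets 2 were called, with differences from −0.02 to 0.52.

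Metabolic and stress groups had medians between −0.19 and 0.13, and counts are read against 9.61% of all genes called higher and 15.1% called lower. Of 22 hypoxia and glycolysis genes 3 rose (SLC2A6, VEGFA and NDRG1) and 3 fell, with a median of −0.03, and with TNF alone 3 and 0 were called. Of 17 sterol genes 8 fell, 0 rose and the median was −0.19, but against untreated arrays alone, and with TNF alone, 1 of the 17 was called. INSIG1 fell by 0.40 ± 0.12, ACAT2 by 0.34 ± 0.05, IDI1 by 0.33 ± 0.08 and EBP by 0.24 ± 0.09. Against untreated arrays alone EBP had 0.02 and INSIG1 −0.32 (adjusted p = 0.252). Of 19 chaperone and XBP1 target genes 3 rose and SDF2L1 fell, of 22 ribosome biogenesis genes 2 fell, MRTO4 (−0.27) and RRP1B (−0.25), and of 23 redox and metallothionein genes 6 rose and 2 fell. With TNF alone 0 of these 23 were called higher and 2 lower, and against untreated arrays alone 4 and 2. IDI1, SDF2L1, MRTO4 and RRP1B were not called against untreated arrays alone. The call of SDF2L1 was also lost in 18 of the 36 fits that each left out 1 array. The oxidase NOX1 rose by 0.64 ± 0.13 and was not called against untreated arrays alone (0.21, adjusted p = 0.543). Ribosome biogenesis genes had 0 called lower with TNF alone. FOXO targets and insulin pathway genes had 5 of 19 higher and 1 lower (4 and 0 with TNF alone), with FOXO1 at 1.03 ± 0.07 and KLF6 at 0.73 ± 0.15.

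Growth arrest genes did not move as one. Of 17 p53 targets and growth arrest genes 4 rose and 5 fell, and with TNF alone 2 were called higher and 1 lower. CDKN1A, which encodes the kinase inhibitor p21, rose by 1.12 ± 0.11 (adjusted p = 2.87e-10) and BTG1 by 0.49 ± 0.07, while GADD45A fell by 0.99 ± 0.12. The medians of CDKN1A were 514, 968 and 1158 at 4, 8 and 16 h with TNF and 323, 332 and 673 without, with overlap at 4 h.

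The treatments within each side were then compared. TNF alone against untreated cells, 6 arrays against 6, gave 727 called genes (8.97%), 407 higher (5.02%) and 320 lower (3.95%). It shares its arrays with the comparison of the sides, so the values are set side by side only. EGF at 1 ng/ml added to TNF gave 0 called genes, with 571 probe sets at an unadjusted p below 0.05 (4.25%) and a smallest adjusted p of 0.0941 by limma. Insulin at 5 ng/ml added to TNF gave 0 as well, with 332 probe sets (2.47%) and a smallest adjusted p of 1.00. Leaving out 1 array raised these counts to 3 at most (EGF, without TNF with EGF at 8 h replicate 1) and to 1 (insulin, without TNF with insulin at 4 h replicate 1). On the side without TNF, EGF at 100 ng/ml changed 94 genes (1.16%) and insulin at 500 ng/ml 35 (0.432%). Median centring moved the split, from 108 probe sets higher and 26 lower to 101 and 2 with EGF, and from 15 and 29 to 1 and 4 with insulin.

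DKK1, a secreted Wnt inhibitor, differed among the treatments of a side. Its median over 6 arrays was 1039 in untreated cells, 2525 with EGF at 100 ng/ml and 1339 with insulin at 500 ng/ml. With TNF alone it was 687, with TNF and EGF at 1 ng/ml 1088 and with TNF and insulin at 5 ng/ml 530.2. EGF raised it without TNF by 1.16 ± 0.10 (adjusted p = 1.14e-09), and the addition of EGF to TNF, at 0.51 ± 0.10, gave the smallest adjusted p of its comparison, which was not called. DKK1 fell by 0.97 ± 0.06 between the sides and by 0.57 ± 0.10 with TNF alone (adjusted p = 5.9e-05).

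CDKN1A and DUSP5 rose both with EGF and with TNF. EGF at 100 ng/ml raised CDKN1A without TNF by 1.15 ± 0.19 (adjusted p = 0.000318) and insulin at 500 ng/ml raised it by 0.80 ± 0.19 (adjusted p = 0.0462). With TNF alone the rise of CDKN1A was 1.62 ± 0.19, against 1.12 ± 0.11 between the sides. DUSP5 rose by 0.85 ± 0.14 with EGF at 100 ng/ml, by 1.34 ± 0.14 with TNF alone and by 1.11 ± 0.08 between the sides. CXCL8 and CX3CL1 also rose with EGF at 100 ng/ml, by 0.86 ± 0.19 (adjusted p = 0.0114) and 0.65 ± 0.10 (adjusted p = 0.000156). With TNF alone they rose by 4.18 ± 0.19 and 2.45 ± 0.10. Insulin at 500 ng/ml lowered CIITA by 0.63 ± 0.14 (adjusted p = 0.0284), and CDC25A was at −1.24 ± 0.18 (adjusted p = 2.6e-06) between the sides and at −0.64 ± 0.32 (adjusted p = 0.29) with TNF alone, where it was not called.

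**Figure D5:**
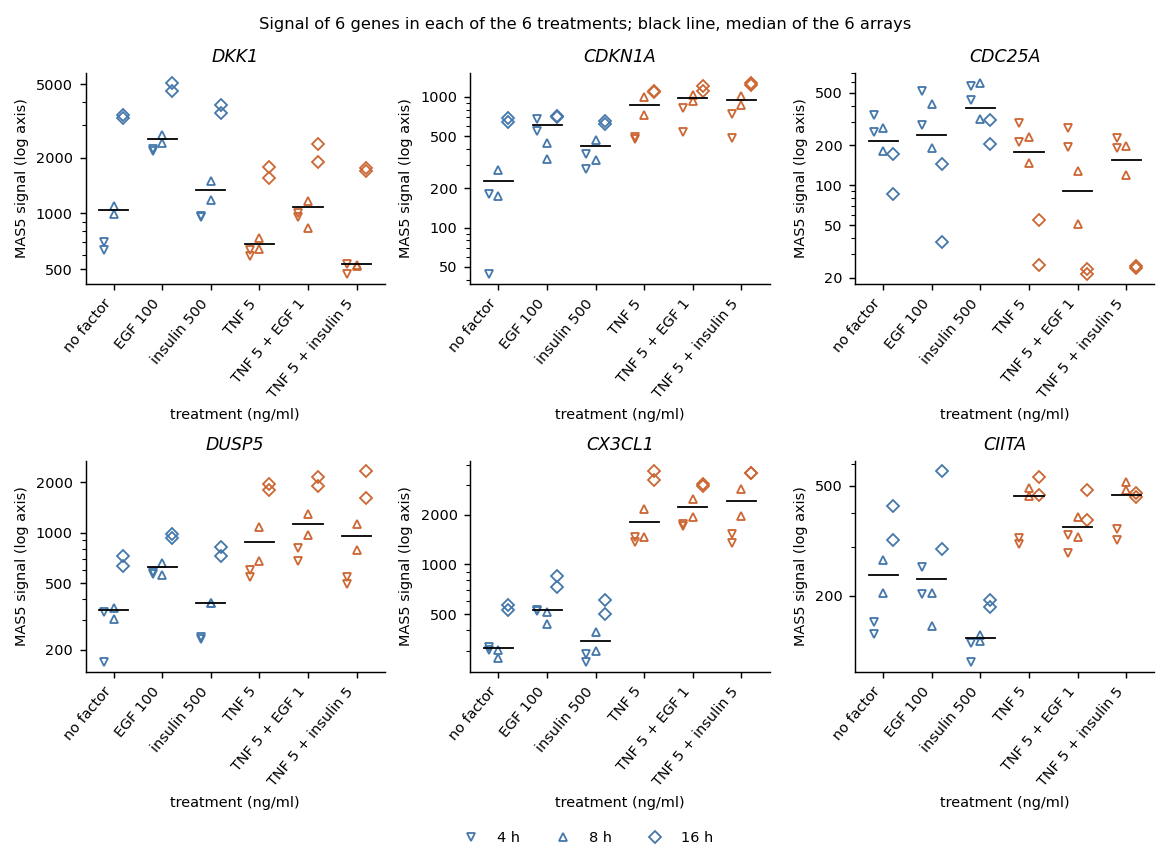
Signal on a log axis in each of the 6 treatments for 6 genes, with one point per array, shapes for the time, blue without TNF and orange with TNF at 5 ng/ml, and black lines at the median of 6 arrays. DKK1 medians run from 2525 with EGF at 100 ng/ml to 530.2 with TNF and insulin; CIITA is lowest with insulin at 500 ng/ml, at 141.2.

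Some genes called between the sides had the opposite sign with TNF alone, and the 6 largest of these are given. FKBP4, a co-chaperone of steroid receptors, was at −0.24 ± 0.09 between the sides and at 0.24 ± 0.15 with TNF alone, which was not called. WDR62, DLEU2, FLRT3, EBP and SMTN fell between the sides by 0.24 to 0.45 and were between 0.00 and 0.07 with TNF alone, where none was called. FKBP4 rose with insulin at 500 ng/ml by 0.68 ± 0.15 (adjusted p = 0.0332). Its call between the sides was lost in 22 of the 36 fits that each left out 1 array, that of EBP in 25 and that of SMTN in 21. The call of FLRT3 was lost without TNF with insulin at 4 h replicate 2 (adjusted p = 0.0557).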

How the data were processed

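The values are deposited signal intensities on a linear scale from MAS5, per the submitters' processing notes; after trimming 2% from both ends, each array had a mean of 500.2, so the authors had scaled the arrays to a common level. Of 22283 probe sets 68 controls were left out. To each intensity 12.49, the 10th percentile, was added before taking log2. The 13422 probe sets whose mean in at least 1 group reached a log2 value of 7.24 (a signal of 138.9) were kept. The model, limma 3.58.1 (R 4.3.3), had 27 group means over all 54 arrays, an intensity trend, 27 residual degrees of freedom and a median of 6.45 prior ones. The 36 arrays that carry the comparison had replicate correlations of 0.947 to 0.977 within groups. A gene is its kept probe set of 1 symbol with the highest mean; 19065 probe sets had 1 symbol in the platform annotation, 1043 several and 2107 none, and symbols are those of that annotation updated by gene identifier. No gene had probe sets called in opposite directions, and 2588 had more than 1.

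The same model was tested on simulated data. Named genes are the 15 largest rises and falls called in the same direction with TNF alone, up to 4 called genes of largest difference per list, the 8 of largest change between 4 and 16 h of each kind, and the 6 largest of opposite sign with TNF alone; other genes were chosen after their values were seen. The members and lists were chosen with earlier results of these data known. List genes without a probe set of 1 symbol, or without one that passed the filter on low signal, were not counted among list members. Same-numbered arrays were checked for pairing by the correlation of their deviations from group means. At 8 h all 15 pairs exceeded 0.1 (0.388 to 0.548), at 4 h 12 of 15 and at 16 h 13 of 15. The medians at 4 and 16 h were 0.181 and 0.191, so same-numbered arrays deviated together there too, but less than at 8 h. The main model holds no replicate block. The labels call the duplicates biological. Alternatives were other normalizations, pseudocounts, no filter, no trend, replicate blocks, fewer arrays and leaving out each array.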

Additional observations from a re-analysis of the deposited data

Results flagged for a closer look

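Genes whose difference between TNF and no TNF changed from one time to another were picked out by the F test of the difference by time, which called 626 genes. The values here are the log2 difference at 16 h minus that at 4 h, for the 8 genes of each kind with the largest change, and each was tested by that F test. For early rises the change was CCL20 −3.35, CXCL3 −1.83, CXCL1 −1.47, CXCL2 −1.32, EFNA1 −1.29, TRIM15 −1.22, PTGS2 −1.21 and NINJ1 −1.16. These are chemokines, a cyclooxygenase and surface or regulatory proteins.

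For late rises it was RSAD2 3.58, IFIT1 3.54, IFIT2 2.97, IFI16 2.73, VCAM1 2.68, IFNB1 2.64, MX2 2.53 and C1S 2.42. Of these, RSAD2, IFIT1, IFIT2, IFI16 and MX2 are interferon-stimulated genes. For early falls it was GPR39 2.47, KLF11 1.91, BMP4 1.53, FUT4 1.23, GADD45A 1.05, NACC2 0.84, DTX4 0.83 and LRFN4 0.76. For late falls it was GINS2 −2.50, RGS2 −2.41, NUDT1 −1.94, ANXA13 −1.89, NRGN −1.75, PAGR1 −1.68, FABP5 −1.54 and TYMS −1.53. GINS2 and TYMS act in DNA replication, and NRGN, like BMP4, GPR39, LRFN4 and NACC2, lost its call by time in several fits that left out 1 array.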

How the results depend on the processing

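Counts here are of probe sets. The count between the sides, 3011, moved by over 1.5 times in 1 of the alternatives run, with untreated arrays alone on the side without TNF (1920), where the changes of EBP (0.022) and FKBP4 (0.10) reversed. By time, 864 became 516 with median centring and 1752 with the replicate block within each time. Same-numbered arrays deviated together most at 8 h, and less at 4 and 16 h. With the block within each time 4 h gave 1173, 8 h 2277, TNF alone 1692 in place of 1049, EGF 100 ng/ml 266 and insulin 500 ng/ml 229. The split was then 595 higher and 578 lower at 4 h, and 837 higher and 855 lower with TNF alone. One replicate block over all times gave 101 for insulin 500 ng/ml and 2 for EGF added to TNF, which gave 2 within each time as well and 2 after quantile normalization. Insulin 500 ng/ml, 44 probe sets, gave 68 after quantile normalization, 5 with median centring and 27 with no filter. The cause was not tested.

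Leaving out each array gave 2779 to 3017 between the sides, 551 to 696 at 4 h, 1186 to 1500 at 8 h, 1805 to 2076 at 16 h, 711 to 957 by time, 836 to 1050 for TNF alone, 84 to 125 for EGF 100 ng/ml, 20 to 76 for insulin 500 ng/ml, 0 to 3 for EGF added to TNF and 0 to 1 for insulin added. EGF 100 ng/ml fell below 134 by over 1.5 times without its own 8 h or 16 h replicate 2 (88 and 84). Insulin 500 ng/ml moved that far without its own 4 h replicates (28 each), 8 h replicates 1 and 2 (76 and 25), 16 h replicate 1 (21), and without untreated 16 h replicate 1 (20) or 8 h replicate 2 (22). EGF added to TNF gave 3 without TNF with EGF at 8 h replicate 1, and 1 without that treatment at 4 h replicate 2 or TNF alone at 8 h replicate 1; insulin added gave 1 without TNF with insulin at 4 h replicate 1.

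Of the named genes' values in the mean over times, 1669 kept their direction and side of the threshold, 56 lost it, 2 gained it (GPR39) and 2 reversed. Under either replicate block, GPR39 (adjusted p = 0.0342) was the only named gene whose call in the mean over times changed. With 2 arrays a group, single genes rest on spread borrowed across 27 groups. The added 12.49 shrinks the folds of probe sets of low signal, which also vary with the arrays used. The weak gene OSGEPL1 ran from −1.11 to −0.85 in the 36 fits that each left out 1 array.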

Other observations

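Genes of the EGF receptor family, its ligands and adaptors had 4 of 15 higher and 0 lower, where 9.61% of all genes were called higher and 15.1% lower, and a median of 0.03. Beside EGFR, the ligand-shedding protease ADAM17 rose by 0.47 ± 0.07, the exchange factor SOS1 by 0.34 ± 0.07 and the ligand TGFA by 0.21 ± 0.08. TGFA was not called against untreated arrays alone (0.21, adjusted p = 0.230), nor after median centring or with no filter. Its call was lost in 17 of the 36 fits that each left out 1 array. The receptor ERBB2, at −0.07, and the ligand EREG, at 0.23, were not called.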
